A study of Mus musculus with 12 samples.

Results

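Padi2, Nup210, Cytip and Mcpt8 were 4 of the 20869 genes tested on 12 one-colour arrays of mouse neural progenitor cells. They were chosen by name because earlier results from the same arrays showed them strongly lower on some of them, so their levels and falls are given as a description, with no test. Matching of gene name, older alias or accession found 6 probes: 1 each for Padi2, Nup210 and Mcpt8, and 3 for Cytip, which the array design lists under its older name Pscdbp. The array holds 41174 probes in all. All 6 probes were well above background, by the scanner software's flag, on all 12 arrays, except the Mcpt8 probe, which was so on 7.

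The cells were neural progenitor cells of the 129/Ola mouse strain. In 10 cultures a retroviral vector, pMXs-IRESNeo, carried the open reading frame of a transcription factor: Crebzf, Esx1, Etv6, Gatad2b, Hmga2, Nfxl1, Pax6, Pdx1, Sox11 or Zfp451. The same vector carried EGFP, a fluorescent protein, in 1 control culture, and the other control was labelled mock. Where an insert was carried, about 95% of cells expressed it, per the labels; at 24 h these cultures received G418, a drug that kills cells lacking the vector's resistance gene, and cells were harvested at 72 h. The sources used here do not say if the mock culture met a virus or G418. Factors that interfere and factors that do not are named as 2 kinds in the study's title, but the labels do not say which factor is of which kind. Each culture gave 1 array, so no p-value was computed, and every difference is between cultures with no replicate check. Arrays are named by their labels, which the signal of the factors' own genes did not bear out on most arrays: the brightest probe for a factor's gene differed on the array labelled with it by -0.83 (Esx1) to 1.34 (Pax6) in log2 from the controls, and the labelled array was the highest of the 12 for Hmga2 alone, where the difference was 0.20; a dimmer probe each for Etv6 and Pax6 was also highest there, with differences of 0.34 and 0.96. That dimmer Pax6 probe was well above background on only 2 arrays. It read -5.17 in log2 on Pax6 and -5.19 on mock, and on EGFP it was set to that array's lowest usable level, -7.05. By its brightest probe the Pax6 gene was higher on 5 arrays labelled with other factors than on that labelled Pax6. The Pdx1 probe was well above background on no array. Whether these probes lie within the cloned reading frames was not established, so these values do not settle the labels.

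Peptidylarginine deiminases, to which Padi2 belongs, are calcium-dependent enzymes that turn arginine residues of proteins into citrulline; Padi2 is the family member best known in brain, where glial cells express it. Nup210 encodes a membrane-spanning glycoprotein of the nuclear pore complex, the channel through which RNA and protein cross the nuclear envelope, and is known for changes in level during muscle and neural differentiation. Cytip encodes a scaffold protein that binds cytohesins, exchange factors for ARF GTPases, and is known for limiting integrin-mediated adhesion of lymphocytes and dendritic cells. Mcpt8 encodes a granule serine protease that marks mouse basophils.

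The 250 bases before the annotated starts of the 4 genes are shown for comparison, although their shared fall is what they were chosen for. The windows come from the RefSeq annotation of GRCm38.p6, in which all 4 genes matched, and lie at chr4:140906110-140906359 on the plus strand for Padi2, and on the minus strand at chr6:91116827-91117076 for Nup210, chr2:58160123-58160372 for Cytip and chr14:56085198-56085447 for Mcpt8. Each is written 5′ to 3′ on the gene's strand, with capitals marking the motif matches that were found.
Padi2: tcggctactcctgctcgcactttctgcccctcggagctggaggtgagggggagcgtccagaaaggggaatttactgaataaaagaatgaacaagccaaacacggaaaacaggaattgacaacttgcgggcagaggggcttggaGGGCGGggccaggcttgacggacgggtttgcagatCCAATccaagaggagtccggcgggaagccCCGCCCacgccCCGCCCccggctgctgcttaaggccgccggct
Nup210: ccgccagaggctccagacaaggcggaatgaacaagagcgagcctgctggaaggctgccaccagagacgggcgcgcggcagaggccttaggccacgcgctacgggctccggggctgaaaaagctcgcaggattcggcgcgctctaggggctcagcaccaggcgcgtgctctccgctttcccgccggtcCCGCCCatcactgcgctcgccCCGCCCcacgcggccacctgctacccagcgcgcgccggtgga
Cytip: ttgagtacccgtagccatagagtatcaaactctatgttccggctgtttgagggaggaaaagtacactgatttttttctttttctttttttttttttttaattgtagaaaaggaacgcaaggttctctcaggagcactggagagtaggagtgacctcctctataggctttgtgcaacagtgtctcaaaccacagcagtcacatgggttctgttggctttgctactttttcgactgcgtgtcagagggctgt
Mcpt8: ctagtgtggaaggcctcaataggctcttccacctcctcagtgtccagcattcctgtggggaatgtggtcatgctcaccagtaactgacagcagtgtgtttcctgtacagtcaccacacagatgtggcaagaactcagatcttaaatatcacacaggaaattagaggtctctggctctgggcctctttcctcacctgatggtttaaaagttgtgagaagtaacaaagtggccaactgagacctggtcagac
The windows were unlike in composition. Nup210's was 71.2% G or C and held 30 CpG dinucleotides, and Padi2's was 61.6% G or C and held 17. Cytip's was 42.8% G or C and held 5 CpG, and Mcpt8's was 48.4% G or C and held 0. Over all 32851 windows of that length in the table the medians were 52.4% and 6 CpG. Searched on both strands were the GC box GGGCGG, the TATA box TATAAA, the E-box CACGTG, the AP-1 site TGANTCA and the CCAAT box CCAAT. Padi2's window held 3 GC boxes and 1 CCAAT box, and Nup210's held 2 GC boxes; the Cytip and Mcpt8 windows held none of the 5 motifs. Of all windows, 32.7% held a GC box, 12.4% a TATA box, 6.02% an E-box, 6.75% an AP-1 site and 33.8% a CCAAT box. No motif was found in the windows of all 4 genes. Each motif was in at most 33.8% of all windows, so nothing is read from that.

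A level here is log2 of the deposited spot intensity minus log2 of that array's 75th percentile of intensity, so that 0 is that percentile. The percentile lay between 823.5 and 1026 units on the 12 arrays, the share of probes well above background was 62.5% to 69.1%, and saturation was flagged on no spot. A gene was called lower, or higher, on a factor's array when it was below, or above, EGFP and mock alike by 2-fold or more, provided the brighter of the compared spots was well above background. All 10 factor arrays were compared with the same 2 controls. The arrays lay on 3 slides of 4: EGFP, mock, Pax6 and Hmga2 on the first, Gatad2b, Etv6, Esx1 and Nfxl1 on the second, and Crebzf, Pdx1, Sox11 and Zfp451 on the third. Arrays differed widely in how many genes were called. The share of all genes tested called lower was 6.42% on Pax6, 7.44% on Esx1, 6.3% on Crebzf, 6.65% on Pdx1, 6.94% on Sox11 and 6.32% on Zfp451, against 0.839% on Etv6, 1.05% on Gatad2b, 0.68% on Hmga2 and 1.22% on Nfxl1. The third slide held neither a control nor an array with few calls, so slide and factor cannot be told apart there; Pax6 and Esx1 each shared a slide with arrays on which few genes were called. In bulk RNA, fewer cells of a type and less RNA per cell cannot be told apart.

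All 4 genes were called lower on the arrays labelled Crebzf, Esx1, Pax6, Pdx1, Sox11 and Zfp451, and none of the 4 on those labelled Etv6, Gatad2b, Hmga2 and Nfxl1. None was called higher on any array. The median difference of the 4 genes from the control mean (EGFP and mock averaged), in log2, was -3.57 on Pax6, -3.90 on Esx1, -3.72 on Crebzf, -3.88 on Pdx1, -3.90 on Sox11 and -3.83 on Zfp451; on Esx1, Crebzf, Sox11 and Zfp451 it is an upper bound, since a middle value is a bound of Mcpt8. It was 0.44 on Etv6, 0.13 on Nfxl1, 0.04 on Gatad2b and 0.03 on Hmga2. The median over all genes tested lay between -0.15 and 0.02 on the 10 factor arrays. These counts and medians restate what the genes were chosen for, and nothing is read from them beyond the description.

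Padi2 was measured by probe A_51_P280117 at chr4:140330821-140330880 on the plus strand of mm7, the build of the deposited probe positions. Which exon or untranslated part each probe matches was not established, since no annotation of that build was used here. Its level was 0.31 on EGFP and 0.49 on mock, and 0.47 on Hmga2, 0.42 on Gatad2b, 0.50 on Nfxl1 and 0.83 on Etv6. It was -3.46 on Pax6, -3.74 on Pdx1, -3.83 on Crebzf, -3.86 on Sox11, -4.07 on Zfp451 and -4.24 on Esx1. No array fell between the EGFP level of 0.31 and the Pax6 level of -3.46. The fall from the control mean was 14.5-fold on Pax6, 17.6-fold on Pdx1, 18.8-fold on Crebzf, 19.2-fold on Sox11, 22.1-fold on Zfp451 and 24.9-fold on Esx1, while both controls differed by 0.18 in log2.

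The scanner software's own error on a Padi2 spot was at most 10.6% of its signal; it covers the spot and not the culture. In the order of levels, 3 of 11 gaps between neighbours were larger than the combined software error of the 2 spots. The gap between EGFP and Pax6 was 3.77, against a combined error of 0.21. Etv6 lay 0.33 above Nfxl1, against 0.20, and Pax6 lay 0.28 above Pdx1, against 0.21. The other neighbours, among them the controls, Hmga2, Gatad2b and Nfxl1, did not differ beyond that error. With another background correction (normexp), the 6 falls of Padi2 lay between -3.70 and -3.22 in log2.

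Nup210 was measured by probe A_51_P420037 at chr6:91095476-91095535 on the minus strand of mm7. Its level was -1.14 on EGFP and -1.26 on mock, and -1.20 on Hmga2, -1.02 on Gatad2b, -1.05 on Etv6 and -1.05 on Nfxl1. It was -4.18 on Zfp451, -4.26 on Pdx1, -4.30 on Crebzf, -4.35 on Sox11, -4.49 on Esx1 and -4.72 on Pax6. The 6 upper arrays spanned 0.24 and the 6 lower arrays 0.54, with a gap of 2.92 between mock and Zfp451. That gap was the only one of the 11 beyond the combined software error, which was 0.22 there.

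The fall of Nup210 from the control mean was 11.5-fold on Pax6, 9.8-fold on Esx1, 8.88-fold on Sox11, 8.61-fold on Crebzf, 8.36-fold on Pdx1 and 7.89-fold on Zfp451. On the other 4 factor arrays its difference lay between -0.00 and 0.18 in log2, and both controls differed by 0.12. Nup210 was lowest on Pax6, whereas Padi2, on the same 6 arrays, was highest there. With normexp correction its 6 falls were smaller, between -2.28 and -2.09 in log2, and kept the call.

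Cytip was measured by 3 probes at different places, and its brightest probe, A_52_P398989 at chr2:58133701-58133760 on the minus strand of mm7, stands for the gene. Its level was 0.22 on EGFP and 0.27 on mock, and 0.20 on Hmga2, 0.24 on Gatad2b, 0.36 on Nfxl1 and 1.24 on Etv6. It was -3.19 on Crebzf, -3.24 on Pax6, -3.27 on Esx1, -3.30 on Sox11, -3.37 on Pdx1 and -3.43 on Zfp451. The 6 lower arrays spanned 0.23, less than the upper arrays, which spanned 1.04 because of Etv6. The falls from the control mean were 10.8-fold on Crebzf, 11.2-fold on Pax6, 11.5-fold on Esx1, 11.7-fold on Sox11, 12.2-fold on Pdx1 and 12.7-fold on Zfp451. Normexp correction put them between -3.05 and -2.87 in log2.

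On the Etv6 array Cytip was 1.02 above EGFP and 0.97 above mock in log2, a 1.99-fold rise over the control mean that missed the rule against mock; with EGFP as the sole control it met the rule. Etv6 lay 0.88 above Nfxl1, the next array, against a combined software error of 0.20. The only other gap beyond the error was that of 3.40 between Hmga2 and Crebzf. Padi2 was also highest on Etv6, 0.43 above the control mean, and was not called there.

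The other Cytip probes moved less. Probe A_51_P377342, at chr2:58158206-58158265 on the minus strand, was named through the older gene name Pscdbp, a synonym of Cytip, and not through its accession. Its level was -3.85 on EGFP, -4.29 on mock, -4.11 on Hmga2, -4.07 on Gatad2b, -3.70 on Etv6 and -4.44 on Nfxl1, and -5.78 on Pax6, -4.45 on Esx1, -5.55 on Crebzf, -6.22 on Pdx1, -5.74 on Sox11 and -5.72 on Zfp451. It was called lower on 5 arrays, with differences from -2.14 on Pdx1 to -1.48 on Crebzf. On Esx1 its difference was -0.37 and it was not called, its level there lying beside that on Nfxl1.

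Probe A_52_P318653, at chr2:58160653-58160712 on the minus strand, read -4.36 on EGFP, -3.71 on mock, -4.64 on Hmga2, -4.24 on Gatad2b, -3.73 on Etv6 and -4.11 on Nfxl1. It read -5.16 on Pax6, -5.14 on Esx1, -5.34 on Crebzf, -5.19 on Pdx1, -4.93 on Sox11 and -5.19 on Zfp451. Its 6 differences lay between -1.30 and -0.90 and it met the rule on 0 arrays, with EGFP 0.65 below mock. The mean of all 3 probes gave falls of the gene between -2.31 and -1.67.

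Mcpt8 was measured by probe A_51_P413059, placed at chr14:50950816-50951190 on the minus strand of mm7. Its level was -2.66 on EGFP and -2.59 on mock, and -2.56 on Gatad2b, -2.23 on Nfxl1, -2.18 on Etv6 and -2.04 on Hmga2. It was -6.24 on Pax6, where it was still well above background. On Esx1, Crebzf, Pdx1, Sox11 and Zfp451 it was not well above background, with measured levels of -8.19, -7.89, -7.29, -7.29 and -7.27. There only a bound can be given, taken against the lowest level well above background on that array or the probe's own level, whichever was higher.

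The fall of Mcpt8 was 12.2-fold on Pax6. It was at least 19.4-fold on Esx1, at least 16.0-fold on Crebzf, at least 20.1-fold on Pdx1, at least 18.9-fold on Sox11 and at least 15.9-fold on Zfp451. On the other factor arrays its difference from the control mean was 0.59 on Hmga2, 0.45 on Etv6, 0.40 on Nfxl1 and 0.06 on Gatad2b. The gap of 3.58 between EGFP and Pax6 compared with a combined software error of 0.31. Normexp correction here adds an offset of 50 units to every spot, and with it the 6 differences lay between -1.77 and -1.66, still called lower.

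**Figure D1:**
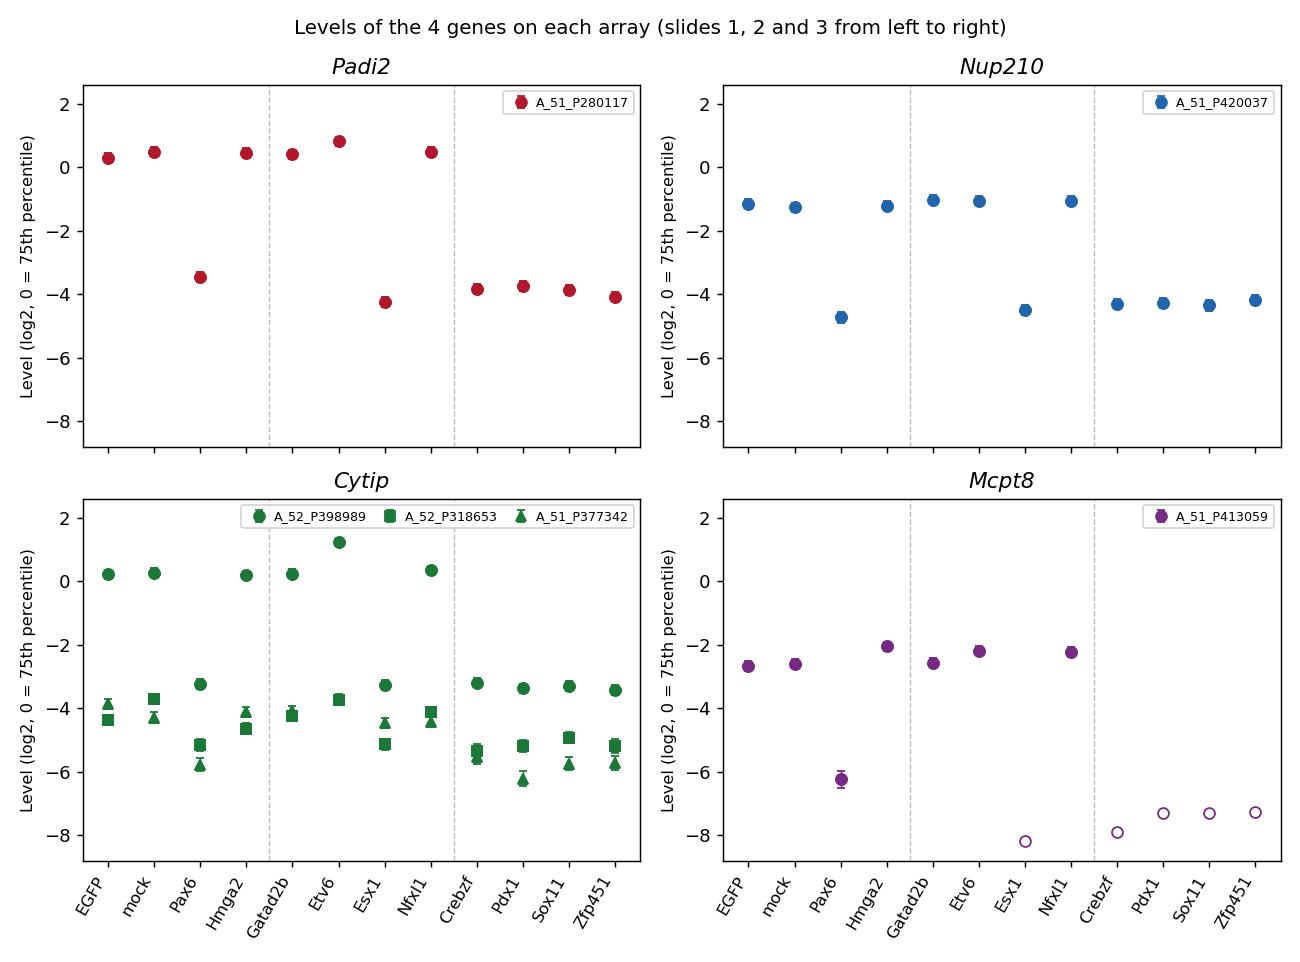
Level of each gene (log2 relative to the array's 75th percentile, vertical axis) on each of the 12 arrays (horizontal axis), with 1 panel per gene and all 3 probes for Cytip; filled points are well above background, open points are not, and bars are the scanner software's error. For the brightest probe of each gene the points of Crebzf, Esx1, Pax6, Pdx1, Sox11 and Zfp451 lie apart from and below the rest, and the 5 open points are all of Mcpt8.

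Comparisons between arrays of the same slide gave falls of like size where they could be made. Against EGFP, mock and Hmga2 in turn, the Pax6 array was lower by 3.77, 3.95 and 3.93 in log2 for Padi2, by 3.58, 3.46 and 3.52 for Nup210, by 3.46, 3.51 and 3.44 for Cytip and by 3.58, 3.65 and 4.20 for Mcpt8. Against Gatad2b, Etv6 and Nfxl1 in turn, the Esx1 array was lower by 4.66, 5.07 and 4.74 for Padi2, by 3.47, 3.44 and 3.44 for Nup210 and by 3.51, 4.51 and 3.63 for Cytip. For Mcpt8 it was lower by at least 4.35, 4.73 and 4.68. The 4 arrays of the third slide were all low for all 4 genes, and when each array was centred on its slide's mean their differences shrank to between -1.14 and -0.61. Among them that left 1 call, on Zfp451. Since every array of that slide was low, that centring removes what its 4 arrays share. The low Pax6 array also pulls down the mean of the slide that holds both controls, which raises the centred controls. The differences and the call left on the third slide hold that shift, so they are not read as falls.

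**Figure D2:**
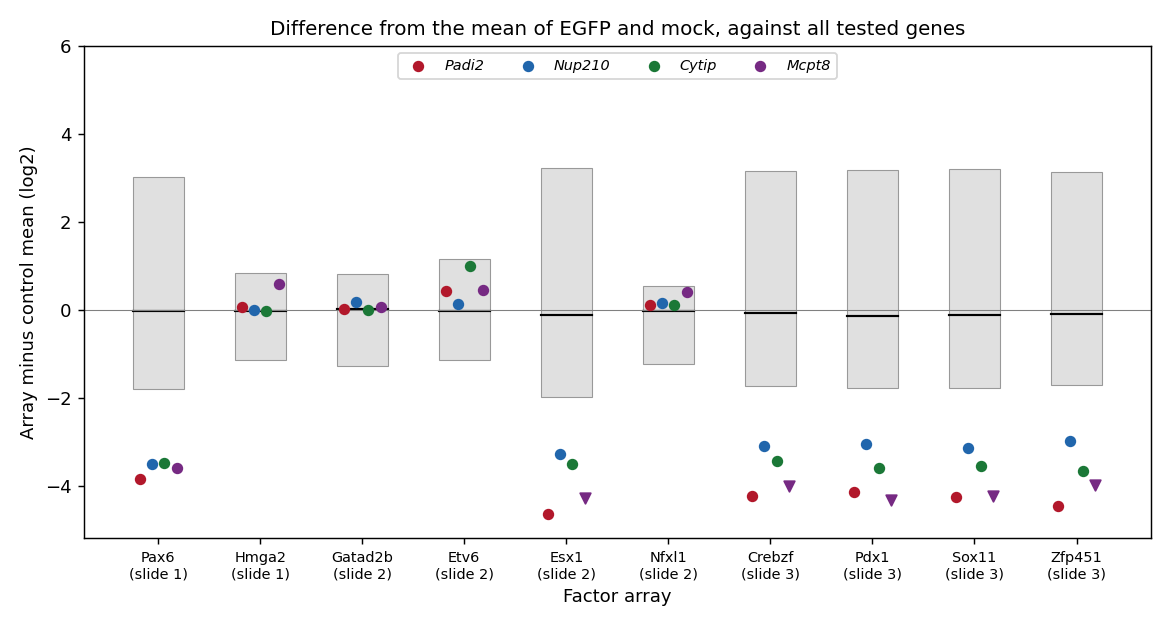
Difference of each gene from the mean of the EGFP and mock arrays (log2, vertical axis) on each of the 10 factor arrays (horizontal axis); circles are measured differences and triangles are bounds for Mcpt8, grey boxes run from percentile 1 to percentile 99 of the 20869 genes tested and black bars mark their median. On Pax6, Esx1, Crebzf, Pdx1, Sox11 and Zfp451 the 4 genes lie below the boxes, and on Hmga2, Gatad2b, Etv6 and Nfxl1 none is below the black bar by 2-fold.

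Of the other peptidylarginine deiminases, Padi4 and Padi3 were called lower on the same 6 arrays as Padi2, and Padi1 on none. On those 6 arrays 6.3% to 7.44% of all genes were called lower. Padi4, Padi3 and Padi1 are the 3 tested genes next to Padi2 on 1 side, on chromosome 4. Padi4, which citrullinates histones in the nucleus, was at -2.43 on EGFP and -2.23 on mock, and at -2.13 on Hmga2, -2.11 on Gatad2b, -1.95 on Nfxl1 and -0.46 on Etv6. It was at -5.28 on Pax6, -4.17 on Esx1, -4.12 on Crebzf, -4.32 on Pdx1, -3.97 on Sox11 and -4.33 on Zfp451. Its differences from the control mean were -2.95 on Pax6 and between -1.99 and -1.63 on the other 5. On Etv6 it was 1.87 higher and was called higher, where 1.04% of all genes were. A second Padi4 probe gave -3.16 on Pax6, -2.21 on Esx1 and 1.84 on Etv6.

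Padi3, known for its part in hair follicles, was well above background on 6 arrays. It was at -3.30 on EGFP but at -5.03 on mock, and at -4.78 on Hmga2, -4.80 on Gatad2b, -5.10 on Nfxl1 and -4.92 on Etv6. On the 6 arrays where Padi2 was low it was not well above background, which left differences of at least -2.79 to -2.46 from a control mean that EGFP raised. Normexp correction ended all 6 of its calls. Padi1, an epidermal member, had levels from -3.71 to -2.77 and differences from -0.59 to 0.35. Padi6, an oocyte member, was well above background on 2 arrays and was called only on Crebzf, where it was at least 2.19 higher at a level of -4.22; 9.8% of all genes were called higher there, and normexp correction ended the call. Padi3 passed the filter on dim genes only through arrays on which it was high, so its calls support nothing. Normexp correction kept the calls of Padi4, but the list was drawn up with earlier results known, so they too are a description.

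**Figure D3:**
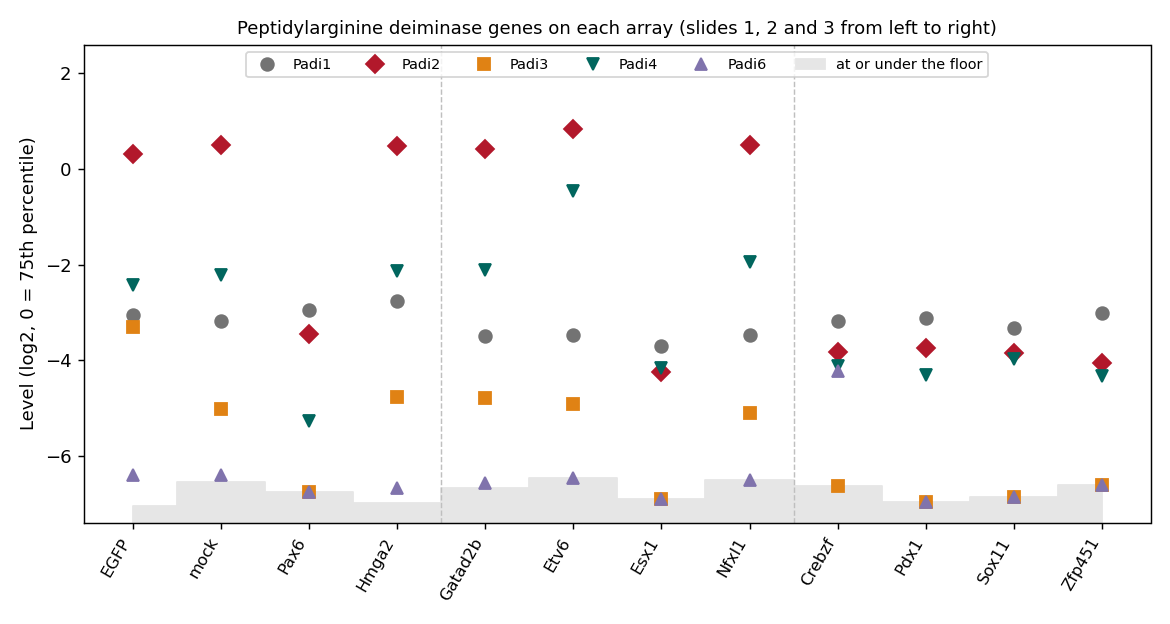
Level of the 5 Padi genes tested (log2 relative to the array's 75th percentile, vertical axis) on each of the 12 arrays (horizontal axis), with the lowest level well above background in grey. Padi2 and Padi4 drop on Pax6, Esx1, Crebzf, Pdx1, Sox11 and Zfp451 while Padi1 stays between -3.71 and -2.77, and Padi4 rises on Etv6 to -0.46; levels of different probes are not to be compared with each other.

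Of the other nuclear pore genes, 4 to 12 of 31 were called lower on each of the 6 arrays and 17 were called on no array. All 32 listed genes were well above background on all 12 arrays. Besides Nup210, 12 of 31 were called lower on Pax6, 7 on Esx1, 5 on Crebzf, 5 on Pdx1, 4 on Sox11 and 5 on Zfp451, where 6.3% to 7.44% of all genes were, and 0 on the other 4 arrays. Summed over arrays these were 38 calls, of which centring on slide means left 18. With quantile normalization the sum was 22, which includes calls not made without it. None was called higher on any array. The median difference of the 31 was -0.89 on Pax6, -0.63 on Esx1, -0.75 on Crebzf, -0.70 on Pdx1, -0.79 on Sox11 and -0.72 on Zfp451, and on those arrays 29 or 30 of the 31 were below the control mean, as were 51.0% to 61.0% of all genes. On Hmga2, Gatad2b, Etv6 and Nfxl1 it was -0.01, 0.11, -0.02 and 0.10. On each of the 6 arrays where it was called lower, Nup210 differed by more than each of the 31. It was chosen as strongly lower in these same data, so that contrast is a description and no test.

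The pore genes called on 4 or more arrays were Ndc1, Nup93, Nup160 and Rae1. Ndc1, which like Nup210 spans the nuclear membrane, differed by -1.49 on Pax6 and by -1.27 to -1.06 on the other 5 arrays. Nup93, of the inner ring, differed by -1.47 to -1.20 on the 6 arrays, Nup160, of the outer ring, by -1.22 to -1.05, and Rae1, an mRNA export factor, by -1.33 to -1.07. With quantile normalization Ndc1 and Rae1 kept 3 of 6 calls each, Nup160 kept 4 and Nup93 kept 5. No pore gene other than Nup210 was 3-fold below both controls on any array. Nup85, Nup88 and Nup133, the listed genes with the highest mean levels, reached -1.04, -0.40 and -0.94, each on Pax6. Nup210l, the paralog of Nup210, was called on no array. Its differences ran from 0.17 to 1.03 over the 10 factor arrays, with 0.78 on Etv6, where Nup210 was not called.

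**Figure D4:**
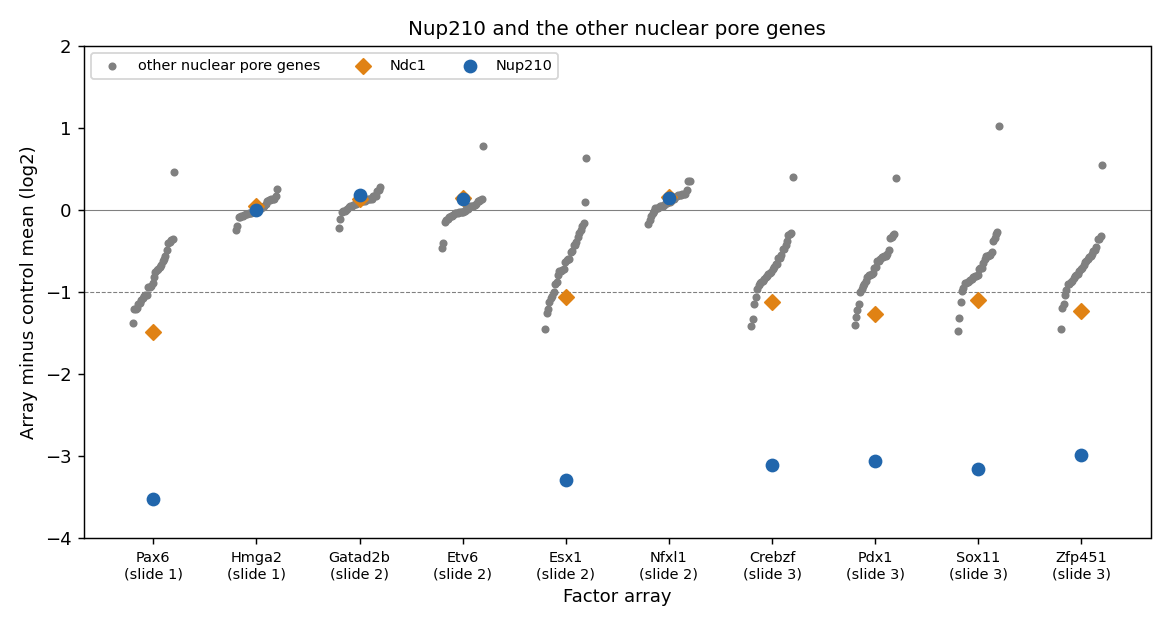
Difference from the mean of the EGFP and mock arrays (log2, vertical axis) for 32 nuclear pore genes on each factor array (horizontal axis), with Nup210 and Ndc1 marked and a dashed line at 2-fold lower. On Pax6, Esx1, Crebzf, Pdx1, Sox11 and Zfp451 Nup210 lies between -3.52 and -2.98, below the other pore genes, most of which lie between 0 and the dashed line.

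No cytohesin or partner of Cytip was called lower on any array. Of the 12 listed, 11 were called on none in either direction. Cyth1, the cytohesin that Cytip is best known to bind, differed from the control mean by -0.43 to 0.20, Cyth2 by -0.63 to 0.46, Cyth3 by -0.13 to 0.41 and Cyth4 by -0.86 to -0.10. The GTPase genes Arf1 and Arf6, downstream of cytohesins, differed by -0.38 to 0.10 and by -0.09 to 0.38. Itgal and Itgb2, the 2 chains of the leukocyte integrin LFA-1, differed by -0.80 to -0.12 and by -0.64 to 0.22.

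Icam1, the ligand of that integrin, was the exception and went up where Cytip went down. It was at -3.18 on EGFP and -3.23 on mock, and was 2.41 higher on Pax6, 3.32 on Esx1, 3.40 on Crebzf, 3.42 on Pdx1, 3.40 on Sox11 and 3.29 on Zfp451. A second Icam1 probe gave 2.21 on Pax6 and 3.14 on Esx1. The share of all genes called higher was 10.7% on Pax6, 10.3% on Esx1, 9.8% on Crebzf, 9.84% on Pdx1, 9.73% on Sox11 and 9.59% on Zfp451. It was 0.431% on Hmga2, 0.633% on Gatad2b and 0.288% on Nfxl1, where no gene of the 4 family lists was called in either direction.

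The chymase and granzyme genes, serine protease genes of the cluster around Mcpt8 and their relatives, gave little signal. Of 18 listed, 7 were tested, 10 were well above background on no array (Mcpt1, Mcpt2, Mcpt9, Gzma, Gzmb, Gzmc, Gzmf, Gzmg, Gzmk and Gzmn), and Cma2 matched no probe. Cma1, a mast cell chymase, was called lower on Pax6, Pdx1 and Sox11, by -1.16, -1.35 and -1.24. Gzmd was called higher on Pax6 and Pdx1, by 1.49 and 1.26. Normexp correction and the mean of all probes each ended all 5 of these calls. On those arrays 6.42% to 6.94% of all genes were called lower and 9.84% or 10.7% higher. Gzmm differed by -0.96 to 0.23 and Ctsg, which encodes cathepsin G, by -0.96 to 0.28, and neither was called on any array. No relative shared the fall of Mcpt8 on all 6 arrays.

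Since Mcpt8 and Cytip are known from blood cells, markers of those cells were read on the same arrays. Of 13 mast cell and basophil markers, 7 were well above background on no array: Kit, Ms4a2, Cpa3, Tpsab1, Cd200r3, Srgn and Il4. The summed level of the list, relative to the 75th percentile on the linear scale, ran from 1.31 on Nfxl1 to 2.08 on Pax6, with 1.4 on EGFP and 1.46 on mock, and Il3ra made up 66.2% to 89.1% of it. Without Il3ra it ran from 0.227 on Pax6 to 0.458 on mock. Il3ra, called on no array, was 0.45 to 0.90 above the control mean on the 6 arrays where Mcpt8 was low. Gata2, a transcription factor gene of mast cells, basophils and other lineages, was lower on those 6 arrays, by -1.34 to -0.85, against -0.38 to 0.15 on the other 4, and was called lower on Pax6 and Crebzf. Tpsb2, a tryptase gene, was called lower on Hmga2 and Pdx1, and Prss34, a basophil protease gene, differed by -0.99 to -0.02 and was called on none. Normexp correction ended the calls of Gata2 and Tpsb2. Of 15 markers of other blood cells, Cd53, Laptm5, Vav1, Itgam, Spi1 and Cd48 were well above background on no array, and the sum ran from 0.329 on Etv6 to 0.75 on Esx1, of which Coro1a made up 45.2% to 79.4%. Coro1a and Aif1 were called higher on the 6 arrays where the 4 genes were low, and Cd3e on Hmga2. Normexp correction and the mean of all probes each ended the calls of Aif1 and Cd3e and kept 4 of 6 for Coro1a. On the 6 arrays 9.59% to 10.7% of all genes were called higher and 6.3% to 7.44% lower. The shares on Hmga2 were 0.431% and 0.68%.

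The neural progenitor list (14 genes) summed to between 83.7 on Pdx1 and 126 on Hmga2, with Vim alone making up 84.8% to 90.8%. Without Vim it ran from 9.05 on Pax6 to 15.5 on Etv6. Vim and Sox2 were well above background on all 12 arrays and called on none, Sox3 was well above background on none, Fabp7 on 5 and Olig2 on 3. Nes, an intermediate filament gene, was called lower on Pax6, Esx1, Crebzf, Sox11 and Zfp451, the Pax6 gene was called higher on the 6 arrays where the 4 genes were low, and Sox9 on 5. Quantile normalization kept 2 of 5 Nes calls, and the mean of all probes kept 0 of 6 calls of the Pax6 gene. That mean includes a Pax6 probe well above background on only 2 arrays. Another Pax6 probe, well above background on all 12, was 1.34 to 1.76 higher on the 6 arrays where the 4 genes were low. Sox1 and Msi1 were each called lower on 1 array, and Fabp7 and Olig2 higher on Crebzf. The fibroblast list (10 genes) summed to 101 to 112 on EGFP, mock, Hmga2, Gatad2b, Etv6 and Nfxl1 and to 232 to 249 on the 6 arrays where the 4 genes were low, and Col1a2, Col3a1 and Col1a1 made up 89.9% to 93.1% of each sum. In it Col1a1, Dcn, Postn and Thy1 were called higher and Twist2 lower on those 6. Among all genes 9.59% to 10.7% were called higher there and 6.3% to 7.44% lower. Dcn was also called higher on Etv6, where 1.04% of all genes were, and Postn lower on Hmga2, where 0.68% were. The mean of all probes kept 3 of 7 Dcn calls. Col3a1 was called higher on 3 arrays and Pdgfrb on 2, and Col1a2, Fbln1 and Lum on none. The pluripotent list (8 genes) summed to between 0.458 and 0.738, with Dppa3 well above background on no array and Esrrb called lower on the 6. Esrrb was well above background on only 6 of the 12 arrays, and normexp correction ended all 6 of its calls. The part of these cell type markers in the falls of Padi2, Nup210, Cytip and Mcpt8 was not tested.

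Of the 24 genes beside the 4 on their chromosomes, which were added after the values were seen, 4 were called lower on Pax6, Pdx1 and Sox11 and 3 on Esx1, Crebzf and Zfp451, where 6.3% to 7.44% of all genes were. Called higher were 6 of the 24 on Pax6 and Zfp451, 5 on Crebzf, Pdx1 and Sox11 and 4 on Esx1. On these arrays 9.59% to 10.7% of all genes were called higher. On Etv6 it was 1 of the 24, against 1.04% of all genes. Of the 3 nearest tested genes on each side, those of Padi2 were its 3 relatives and, past its other end, Sdhb, Atp13a2 and Mfap2. Sdhb, a subunit of mitochondrial complex II, was called nowhere, with differences from -1.02 to -0.87 on the 6 arrays where Padi2 was low, and Mfap2, a microfibril gene, was called higher on 6 arrays. Beside Nup210, Hdac11, Fbln2 and Slc41a3 were each called higher on 6 arrays and Aldh1l1 on 4. Beside Cytip, the activin receptor genes Acvr1 and Acvr1c were called nowhere and Pkp4 was called lower on 6 arrays, down to -1.20; quantile normalization kept 1 of those calls. Gpd2 differed by -0.94 to -0.81 on the same 6 arrays and was not called. Beside Mcpt8, Cma1 alone was called lower, on 3 arrays. Mcpt4, Sdr39u1, Ctsg and Gzme were called on none.

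The genes with the profile most like that of each of the 4 were found by the root mean square difference of log2 levels over the 12 arrays, after subtracting each gene's mean, among the 14765 tested genes with a RefSeq symbol, clones and predicted genes left out. Levels not well above background entered at their array's lowest level well above background, which touches 5 values of Mcpt8, so its distances depend on that floor. For Padi2 they were Mcpt8 at 0.21, the integrin gene Itgb7 and the phosphodiesterase gene Pde2a at 0.31 each, Cytip at 0.40 and the mesothelin gene Msln at 0.41. For Mcpt8 the same set appeared, with Padi2 at 0.21, Itgb7 and Pde2a at 0.34 each, Msln at 0.41 and Cytip at 0.43. Without the floor, an alternative chosen after seeing the data, Hao1 was nearest to Padi2, at 0.21, and Mcpt8 stood 0.46 away, at place 10. For Mcpt8 Padi2 remained first, then Hao1 at 0.50, Txk at 0.56, Pde2a at 0.62 and Gsta2 at 0.67. Cytip moved to place 10 in the list of Mcpt8, and Itgb7 and Msln were no longer among its 5 nearest. Nearest to Cytip were the growth factor gene Areg and Rnf183 at 0.17 each, Msln at 0.20, Itgb7 at 0.21 and Wnt7b at 0.25. For Nup210 they were Btbd11 and Hpdl at 0.14 each, the protease receptor gene F2rl1 at 0.17, and the AP-1 gene Fosl1 and Il18rap at 0.18 each.

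Among the 4 genes themselves, Nup210 stood 0.62 from Padi2, 0.62 from Mcpt8 (1.01 without the floor) and 0.37 from Cytip by the same measure. Its own nearest genes did not include any of the other 3. On Etv6 Nup210 was within 0.18 of the control mean, where Padi2, Cytip and Mcpt8 lay 0.43, 0.99 and 0.45 above the control mean. Itgb7, near to Padi2 and Cytip, and among the nearest to Mcpt8 only with the floor, was 1.34 higher on Etv6 and differed by -3.48 on Pax6.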

How the data were processed

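RNA of 12 cultures, 0.25 µg each, was labelled with 1 dye (Cy3) and hybridised to Agilent arrays, 4 on each of 3 slides. Per the file headers, the authors deposited scanner output made with Agilent Feature Extraction 10.7.3.1: background-subtracted spot intensity, its error, and flags for saturation, outliers and signal well above background. The deposited value table equals that intensity. Later processing by the authors was not given in the sources used here.

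Outlier spots were dropped and repeats of a probe averaged. Probe names came from RefSeq accession (22951 probes), symbol (6659), synonym (3109) or the file (8455). Levels are log2 intensity minus each array's log2 75th percentile. Dim levels were raised to the array's lowest level well above background, between -7.05 and -6.46. The brightest probe stood for a gene, and the 20869 genes with signal well above background on 1 array or more were tested; 16083 had it on all 12. With 1 array per group there was no test across genes, and the number of arrays limits the precision.

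The 4 genes and all lists were chosen with earlier results of these data known. Named genes were the 4 with every probe, list genes called on 4 or more factor arrays, up to 3 further genes per list with the highest mean level, and the 5 nearest profiles of each; other names were chosen after their values were seen. Alternatives were normexp background correction (limma 3.58.1, offset 50), quantile normalization, each control alone, centring within slides, a filter for genes detected on all arrays, a 3-fold rule, no floor and the mean of all probes. Computation used Python 3.11.15, numpy 2.4.6, pandas 2.3.3 and R 4.3.3.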

Additional observations from a re-analysis of the deposited data

How the results depend on the processing

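Over the settings tried, no call reversed direction among the 4 genes or among the 47 other list and neighbouring genes called on at least 1 array. Of the latter's 178 calls, normexp correction kept 127, quantile normalization 149 and the mean of all probes 142. A 3-fold rule kept 79 of them, and centring on slide means kept 70. Centring on slide means left 0 of the 4 genes called lower on Crebzf, 0 on Pdx1, 0 on Sox11 and 1 on Zfp451. Without centring 4 were called on each of these arrays. The slide's own mean holds the fall there, by construction. The low Pax6 array on the controls' slide enlarges the differences left, also by construction. Centring left 23 of 53 lower calls and 4 of 10 higher calls among the other genes of the family lists, summed over arrays. A 3-fold rule left 11 of the 53. The range of levels over the arrays fell with normexp correction from 5.07 to 4.10 for Padi2, from 3.70 to 2.40 for Nup210, from 6.15 to 2.20 for Mcpt8, and for the Cytip probes A_52_P398989, A_51_P377342 and A_52_P318653 from 4.66, 2.52 and 1.63 to 3.98, 1.03 and 0.74. Quantile normalization gave 4.07 for Nup210 and 1.91 for A_52_P318653. Without a floor, the largest difference of Mcpt8 was -5.56. Mcpt8 gave no value where genes had to be detected on all arrays. No paired analysis was possible because each group holds 1 array. Signal over background limits Mcpt8, Padi3 and Padi6.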
